A study of Mus musculus with 29 samples.

Results

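Fibroblast growth factors (FGFs) and bone morphogenetic proteins (BMPs), with their receptors, were followed through the DNA methylation of mouse lung. A member was any window of the methylation table on an autosome that carried the name of a gene whose symbol begins with Fgf, Fgfr, Bmp or Bmpr followed by a digit. Windows named Fgfr2 or Bmp2k were left out. This took 519 of the 260686 windows, and 36 of the 39260 gene names. Of the matching windows left out, 657 belonged to Fgfr2 and Bmp2k, and 57 lay on the X chromosome. Each window spans about 50 CpG dinucleotides, so 461 member windows held exactly 50, and the median member window was 5168 bp long (range, 273 to 20440 bp). All 519 overlapped the gene they were named for. There were 129 windows in 9 BMP ligand genes, 87 in 3 BMP receptor genes, 86 in 12 genes of secreted FGFs, 5 in 3 genes of endocrine FGFs, 37 in 3 FGF receptor genes and 149 in 3 genes of intracellular FGF homologues. A further 26 windows belonged to 3 genes whose symbols match but which encode neither a ligand nor a receptor.

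FGFs are secreted proteins that bind receptor tyrosine kinases of the Fgfr family, usually together with heparan sulfate. BMPs are ligands of the TGF-β superfamily, which bring type II receptors such as Bmpr2 together with type I receptors such as Bmpr1a and Bmpr1b and so activate Smad transcription factors. Both families direct branching of the embryonic lung, with Fgf10 from the mesenchyme and Bmp4 from the distal epithelium as the classical pair, and both act again in repair of the adult organ.

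The libraries came from lungs of BALB/c female offspring, 13 weeks old, in 4 groups. Dams received intranasal saline (Sham) or a suspension of fine particulate matter, PM2.5 (PM), from before mating until their pups were weaned. In Sham-OVA and PM-OVA the offspring were sensitised to ovalbumin (OVA) with alum and then inhaled nebulised OVA, a model of allergic airway disease. Sham and PM animals inhaled nebulised saline, and the study's methods leave unclear whether they were also sensitised. Sham, Sham-OVA and PM had 7 libraries each and PM-OVA had 8, each from lung tissue with all its cell types. A change in the mix of cells and a change of methylation within a cell type cannot be told apart in such tissue. The labels name no dam, so pups of 1 litter may stand behind different libraries of a group, and p-values measure the spread between these libraries.

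Every member window had a value in all 29 libraries. The study's methods give a high mean genome coverage for each library, but the coverage behind each percentage is not in the table, so no counting interval could be given. Between 258952 and 260135 windows had a value in a library. Sham replicate 1 had values in 1224 of the 1230 windows on the Y chromosome, against 29 to 46 in the other 28 libraries, which goes against its label as female. The comparison of Sham-OVA with Sham was therefore refitted without this library for every member window, gene mean and list. Of 199 member calls 182 were kept, 17 were lost, 4 were gained and 0 changed sign, and the Sham mean of a member window moved by at most 1.05 points. The lost calls included the only call of Fgf6 and of Fgf22 in Sham-OVA. Among gene means the Bmp3 call was gained (adjusted p = 0.0408, limma) and none was lost. Of the calls in the FGF and BMP pathway lists, 107 of 116 and 157 of 171 were kept.

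RefSeq promoters of GRCm38.p6, the build of the table, were found for 26 of the 36 genes. The 250 bases before the RefSeq start held a median of 15 CpGs over the 33 promoters of these genes, and 6 over all 32851 promoters. Of all promoters, 44.4% held 4 CpGs or fewer and 17.9% held 20 or more, and among the 33 these were 4 and 11 promoters. The sequences of 4 are shown because they cover the range of starts described next, from CpG-poor and methylated to CpG-dense and nearly unmethylated. They were chosen after the values were seen, and not every gene follows this order. The Fgf3 promoter holds 4 CpGs, as does that of Bmp5, but its RefSeq start lay in a window at 1.41% in Sham. Capitals mark every CpG, all are on the plus strand and end just before the annotated start, and bases in an annotated exon are left out. The Bmp10 stretch lies at chr6:87428744-87428993, that of Bmp5 at chr9:75775115-75775363, that of Fgf4 at chr7:144861136-144861385 and that of Fgf5 at chr5:98253934-98254183.
Bmp10: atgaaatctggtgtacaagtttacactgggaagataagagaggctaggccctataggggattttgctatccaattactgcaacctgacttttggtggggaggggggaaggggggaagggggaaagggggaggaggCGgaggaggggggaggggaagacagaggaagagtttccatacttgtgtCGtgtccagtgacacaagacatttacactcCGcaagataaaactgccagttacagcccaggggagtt
Bmp5: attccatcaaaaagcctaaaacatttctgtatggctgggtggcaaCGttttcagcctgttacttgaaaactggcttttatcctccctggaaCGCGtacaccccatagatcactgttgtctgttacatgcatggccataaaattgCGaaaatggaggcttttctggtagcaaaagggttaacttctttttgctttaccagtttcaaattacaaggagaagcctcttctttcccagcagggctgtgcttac
Fgf4: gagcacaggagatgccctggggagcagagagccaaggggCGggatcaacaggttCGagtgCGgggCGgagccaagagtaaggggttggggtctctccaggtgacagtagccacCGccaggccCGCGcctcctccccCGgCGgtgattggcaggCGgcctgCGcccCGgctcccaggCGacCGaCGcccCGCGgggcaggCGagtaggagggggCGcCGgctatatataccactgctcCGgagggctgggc
Fgf5: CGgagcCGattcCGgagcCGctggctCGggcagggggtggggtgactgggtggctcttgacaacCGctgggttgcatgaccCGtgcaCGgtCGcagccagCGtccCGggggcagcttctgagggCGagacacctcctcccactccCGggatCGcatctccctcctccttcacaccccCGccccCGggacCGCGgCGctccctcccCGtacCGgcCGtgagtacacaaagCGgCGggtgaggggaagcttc

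The window holding the annotated gene start (the most upstream start in GENCODE) carried the gene's own name for 32 of the 36 genes. For Fgf2, Fgf15, Fgfr3 and Fgfr1op2 it carried the name of an overlapping gene and is not a member. In Sham lungs, 9 of the 32 start windows had a mean methylation under 1%, 4 lay between 1 and 10%, 13 between 10 and 60%, and 6 at 60% or above. The lowest were Bmp1 (0.0751%), which encodes a procollagen protease in spite of its name, Fgf20 (0.138%), Fgfr1op (0.158%) and the receptor gene Bmpr2 (0.247%). Fgf5, whose 24 promoter CpGs are shown above, had 0.599% ± 0.246 (SD, n = 7). Highest were Fgf6 (80.7%), a skeletal muscle FGF, and Bmp10 (78.3%), a ligand made chiefly in the heart, whose promoter holds 3 CpGs. Bmp4 (38.9%), Fgfr1 (39.1%) and Bmp5 (37.6%) were intermediate. In 22 of the 31 steps along this order the ranges of neighbouring windows overlapped in Sham, so the order is resolved between blocks of genes rather than between single ones. These levels depend on which start is taken. For 10 of the 23 genes that have both a start window and a promoter entry (Bmp6, Bmpr1a, Bmpr1b, Bmpr2, Fgf3, Fgf4, Fgf9, Fgf10, Fgf14 and Fgf22), every RefSeq start lay in another window. At the RefSeq start Bmpr1a had 0.372%, Fgf9 0.566%, Fgf3 1.41%, Bmpr2 8.68%, Fgf14 25.2% and Fgf22 48.9% in Sham, and Bmpr1b had 63.8 and 66.7% at its RefSeq starts. The RefSeq start of Fgf10 lay in a window at 1.07% ± 0.189 and that of Fgf4 in a window at 1.97% ± 0.446 (SD, n = 7 each), against 72.9% and 72.1% at their most upstream starts.

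**Figure D1:**
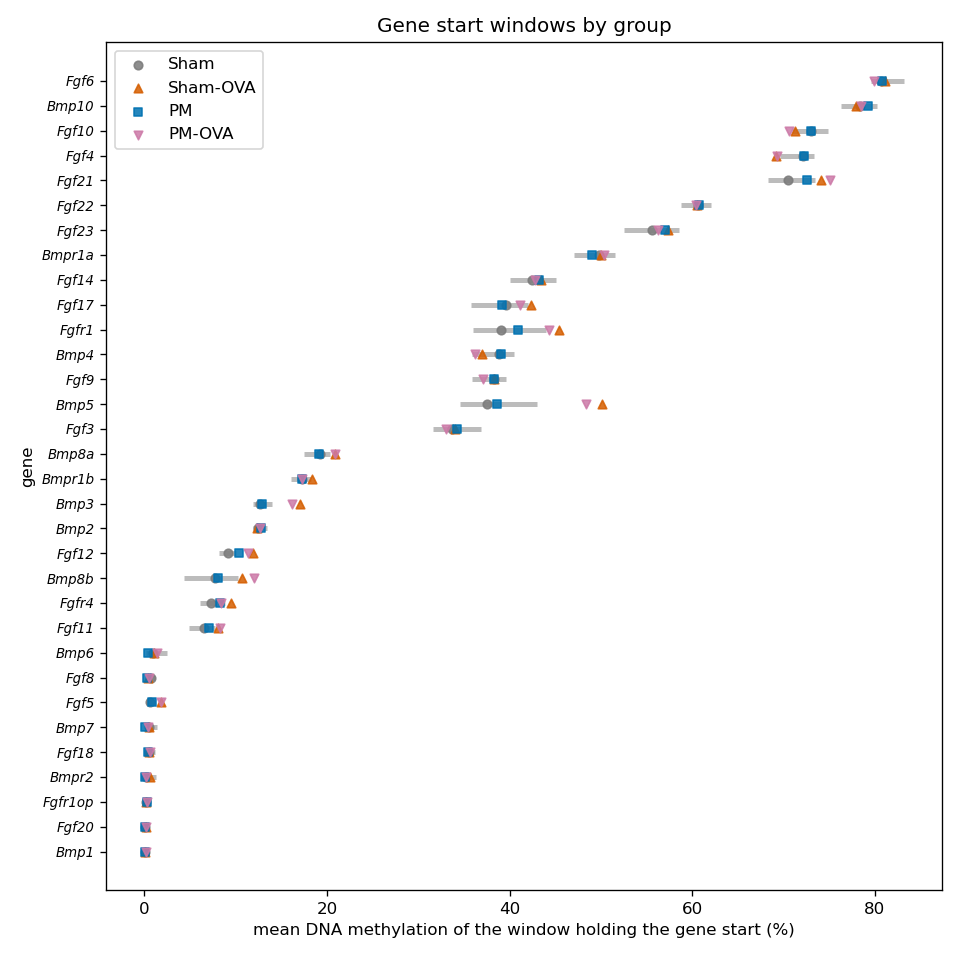
Mean DNA methylation (%, horizontal axis) of the window holding each gene's start, 1 row per gene in order of the Sham mean, with 1 symbol per group and a grey bar from the lowest to the highest Sham library. The 4 groups lie close together for most genes, and Bmp5 (37.6% in Sham, 50.1% in Sham-OVA) shows the widest step.

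OVA challenge changed methylation at many member windows by small amounts. In offspring of saline dams, 199 of 519 windows differed between Sham-OVA and Sham at an adjusted p under 0.05 by the limma-moderated test, 87 of them higher after OVA and 112 lower, and differences ran from -6.07 to 12.5 percentage points. Of all 259167 tested windows, 13.3% were higher and 22.3% lower, so the members' 16.8% and 21.6% lay near the background. In offspring of PM2.5 dams, 235 windows differed, 60 higher and 175 lower in PM-OVA, beside 9.26% and 34.8% of all windows. Members had a median difference of -0.352 points in the Sham comparison and of -1.13 points in the PM comparison, where all windows had -0.414 and -1.03 points. Falls outnumbered rises across the whole table. When each library was first centred on the median window, 110 members were higher and 97 lower in Sham offspring (18.3% and 17.8% of all windows) and 111 higher and 99 lower in PM offspring (18.9% and 18.7% of all windows), again near the background. No window called both with and without centring had opposite signs. Groups did not overlap at all in 41 member windows for Sham-OVA against Sham (8.58% of all windows did so) and in 53 for PM-OVA against PM (12% of all windows). Without Sham replicate 1 the number called in Sham offspring was 186.

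The difference after OVA followed the resting level of a window. Nearly unmethylated windows have little room to fall, and nearly fully methylated ones little room to rise, so part of this pattern is fixed in advance. To avoid using the same libraries, windows of the Sham contrast were sorted by their level in PM lungs, and those of the PM contrast by their level in Sham lungs. Under 10%, 19 of 60 member windows were higher and 0 lower in Sham-OVA, and 25 of 62 were higher and 1 lower in PM-OVA. At 85% and above, 2 of 74 were higher and 35 lower in Sham-OVA, and 0 of 72 were higher and 43 lower in PM-OVA. Over all windows of the table, the lowest class had 3339 of 17891 higher and 504 lower in Sham-OVA, and the highest class 3428 of 55819 higher and 16625 lower. In PM-OVA the lowest class had 2964 of 17905 higher and 608 lower, and the highest 1740 of 53100 higher and 23042 lower. Length gave the same division, since 50 CpGs fit into a short stretch only where CpGs are dense. Among the 70 member windows under 1500 bp, 24 were higher and 0 lower in Sham-OVA, and 26 were higher and 1 lower in PM-OVA. Their median level in Sham was 0.961%. Of all windows of that length, 19% were higher and 3.74% lower in Sham-OVA, and 16% and 4.83% in PM-OVA. Of the 265 at 5000 bp and over, 24 were higher and 75 lower in Sham-OVA, and 14 higher and 111 lower in PM-OVA, where all windows of that length had 7.05% higher and 29.4% lower, and 4.22% and 46.9%. The division by level and length was thus present in the whole table, but member shares were larger in some classes. Under 10%, 31.7% of members and 18.7% of all windows were higher in Sham-OVA, and 40.3% and 16.6% in PM-OVA. At 85% and above, 47.3% of members and 29.8% of all windows were lower in Sham-OVA, and 59.7% and 43.4% in PM-OVA. Under 1500 bp, 34.3% of members were higher in Sham-OVA and 37.1% in PM-OVA. These gaps were not tested.

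**Figure D2:**
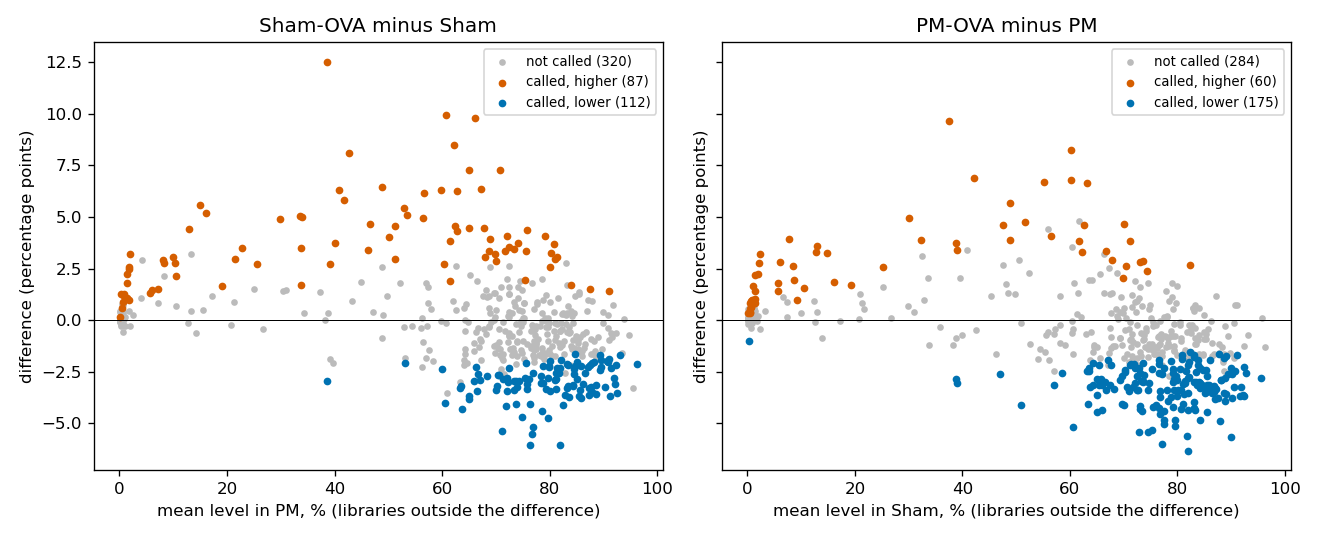
Difference in DNA methylation after OVA (percentage points, vertical axis) against the mean level (%) in unchallenged libraries of the other dams, for the 519 member windows. Orange points (87 left, 60 right) were called higher, blue points (112 left, 175 right) lower and grey points not called. Rises gather at low and intermediate levels and falls at high levels.

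By role, the BMP ligands had 32 windows higher and 29 lower of 129 in Sham-OVA, and 22 higher and 37 lower in PM-OVA. The BMP receptors had 16 higher and 18 lower of 87 in Sham-OVA, and 13 higher and 31 lower in PM-OVA. Secreted FGFs had 16 higher and 8 lower of 86 in Sham-OVA, and 11 higher and 21 lower in PM-OVA. FGF receptors had 8 higher and 7 lower of 37 in Sham-OVA, and 4 higher and 14 lower in PM-OVA. The intracellular homologues had 11 higher and 40 lower of 149 in Sham-OVA, and 8 higher and 60 lower in PM-OVA. The endocrine FGFs, with 5 windows, had 2 higher in Sham-OVA and 1 in PM-OVA. These directions depended on the scaling, above all in PM offspring. With each library centred, PM-OVA had 40 higher and 25 lower windows of BMP ligands, 18 and 24 of BMP receptors, 22 and 7 of secreted FGFs, 8 and 9 of FGF receptors and 18 and 23 of intracellular homologues, so that BMP ligands and secreted FGFs turned from mostly lower to mostly higher. In Sham-OVA the BMP receptors turned, to 19 higher and 17 lower, and the other roles did not. Gene by gene, the balance of called windows turned for 6 genes in PM-OVA (Bmp3, Bmp6, Bmpr1a, Fgf6, Fgf10 and Fgf11) and for 2 in Sham-OVA (Bmpr1a and Fgfr1op2). Counts below are uncentred unless said.

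**Figure D3:**
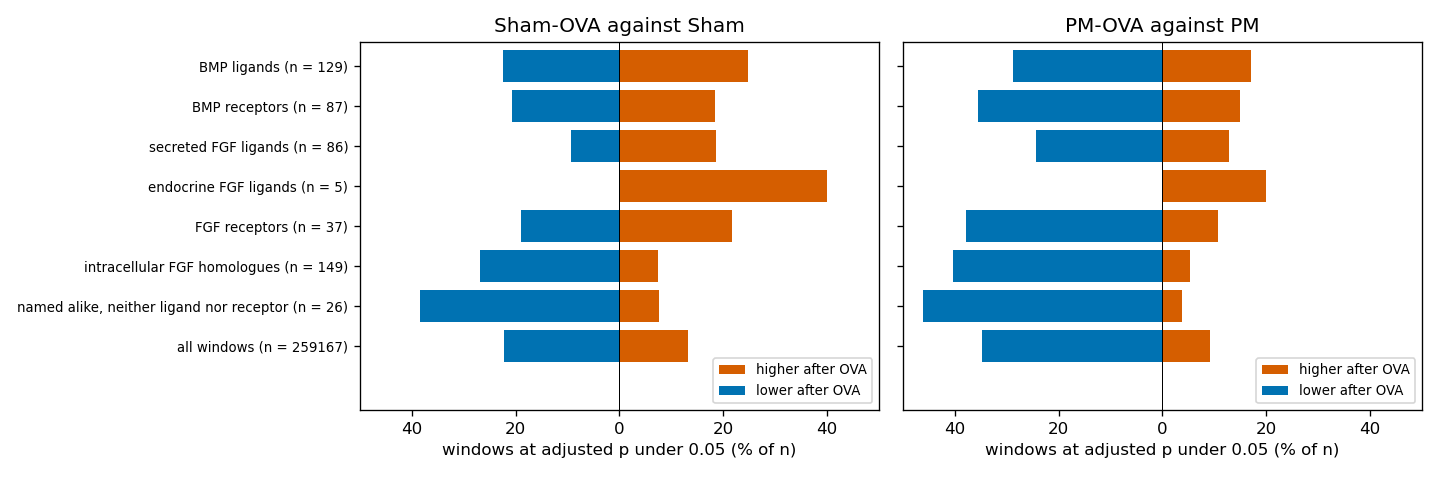
Share of windows (% of the n beside each name) at an adjusted p under 0.05 for each role and for all windows, drawn to the right where methylation was higher after OVA and to the left where it was lower. Left panel, offspring of saline dams. Right panel, offspring of PM2.5 dams. For all windows the shares are 13.3% and 22.3% on the left, and 9.26% and 34.8% on the right. With libraries centred, which is not drawn, the balance turned for BMP receptors on the left and for BMP ligands and secreted FGFs on the right.

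The largest change of any member was a gain at the start of Bmp5, a BMP ligand made by mesenchymal cells of the lung. The window lies on chromosome 9 from 75773647 to 75779234 (GRCm38) and takes in the promoter shown above, the gene start at 75775364 and the following exonic and intronic sequence. Sham libraries ranged from 34.6 to 43.0% (median, 36.7%) and Sham-OVA libraries from 46.8 to 57.2% (median, 49.0%). Every Sham-OVA library was above every Sham library. The mean rose by 12.5 points, from 37.6% ± 2.91 to 50.1% ± 3.35 (SD, n = 7 each), which is a log2 ratio of 0.73 (SE, 0.09) with an adjusted p of 4.53e-07 by limma. PM libraries ranged from 34.3 to 41.5% (median, 39.6%) and PM-OVA libraries from 44.5 to 51.8% (median, 48.0%), again without overlap. Here the mean rose by 9.64 points, from 38.7% ± 2.77 (n = 7) to 48.3% ± 2.59 (n = 8), a log2 ratio of 0.56 (SE, 0.08) with an adjusted p of 7.28e-06. The log2 ratio compares methylated with unmethylated percent, 1 having been added to each.

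A differentially methylated region (DMR) is here a called window that differs by at least 10 points. The study used the same minimum difference with a stricter adjusted p, under 1e-06, from another test. By the rule used here, this Bmp5 window was the 1 member DMR in Sham offspring, and there were 0 in PM offspring, and both counts were the same at the stricter p. DMRs made up 0.775% and 0.584% of all windows in the same comparisons. In Sham offspring 2 windows of Bmpr2 lay just below this limit, at 9.94 and 9.81 points, and in PM offspring the Bmp5 start did, at 9.64 points. The count moved with single libraries. It was 3 without Sham replicate 2, without Sham-OVA replicate 3 or without Sham-OVA replicate 5, and 2 without Sham replicates 1, 3 or 4 or Sham-OVA replicate 7, each taken alone. In PM offspring it was 1 without PM-OVA replicate 4, PM replicate 1 or PM replicate 6.

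The gain of Bmp5 lay mostly close to its start. The next window downstream rose from 62.5 to 67.1% in Sham-OVA and from 62.5 to 67.1% in PM-OVA (adjusted p = 0.00059 and 0.00029, limma). Further into the gene most called windows were lower. Of the 17 Bmp5 windows, 3 were higher and 7 lower in Sham-OVA, and 2 higher and 8 lower in PM-OVA. An intronic window at 75853202 to 75861735 fell from 81.8 to 78.2% in Sham-OVA and from 82.8 to 77.2% in PM-OVA (adjusted p = 0.00108 and 2.5e-06, limma). PM libraries there ran from 81.7 to 85.2% and PM-OVA libraries from 75.4 to 80.1%, without overlap, while the Sham and Sham-OVA ranges overlapped.

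Bmpr2, the type II BMP receptor whose loss-of-function mutations underlie heritable pulmonary arterial hypertension, gained methylation along much of its length. Of its 17 windows along chromosome 1 from 59762997 to 59879406, 10 were higher and 0 lower in Sham-OVA, and 6 were higher and 3 lower in PM-OVA. With each library centred, these were 10 and 0, and 7 and 3. The 3 windows of the CpG-dense start were at 0.626% or less in every group mean, and none of them was called. The window that follows, at 59764253 to 59768412, holds the RefSeq start and rose by 3.07 points from 8.68% in Sham-OVA and by 1.96 points in PM-OVA (adjusted p = 0.000118 and 0.00703, limma).

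The intronic Bmpr2 window at 59768413 to 59776196 rose most. Sham libraries ranged from 57.5 to 62.1% (median, 60.7%) and Sham-OVA libraries from 66.1 to 75.8% (median, 70.6%), so that the groups stood apart. The rise was 9.94 points, from 60.2% ± 1.75 to 70.1% ± 3.24 (SD, n = 7 each), with a log2 ratio of 0.63 (SE, 0.09) and an adjusted p of 6.15e-06 by limma. PM libraries ranged from 57.0 to 67.3% (median, 60.8%) and PM-OVA libraries from 65.2 to 71.7% (median, 69.6%), overlapping through PM replicate 4 alone. The rise was 8.27 points (log2 ratio, 0.51; SE, 0.09; adjusted p = 3.68e-05, limma). Another intronic window at 59787608 to 59794925 rose by 8.51 points in Sham-OVA and 6.78 points in PM-OVA. The window at 59847750 to 59853533, of which 2731 bp are exonic, rose by 9.81 and 6.63 points, and neither pair of groups overlapped. The adjusted p of these 4 differences ran from 3.56e-06 to 0.000435 (limma). The last window of the gene differed by -0.594 points in Sham-OVA (adjusted p = 0.561) and fell by 2.83 points in PM-OVA (adjusted p = 0.00311, limma).

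**Figure D4:**
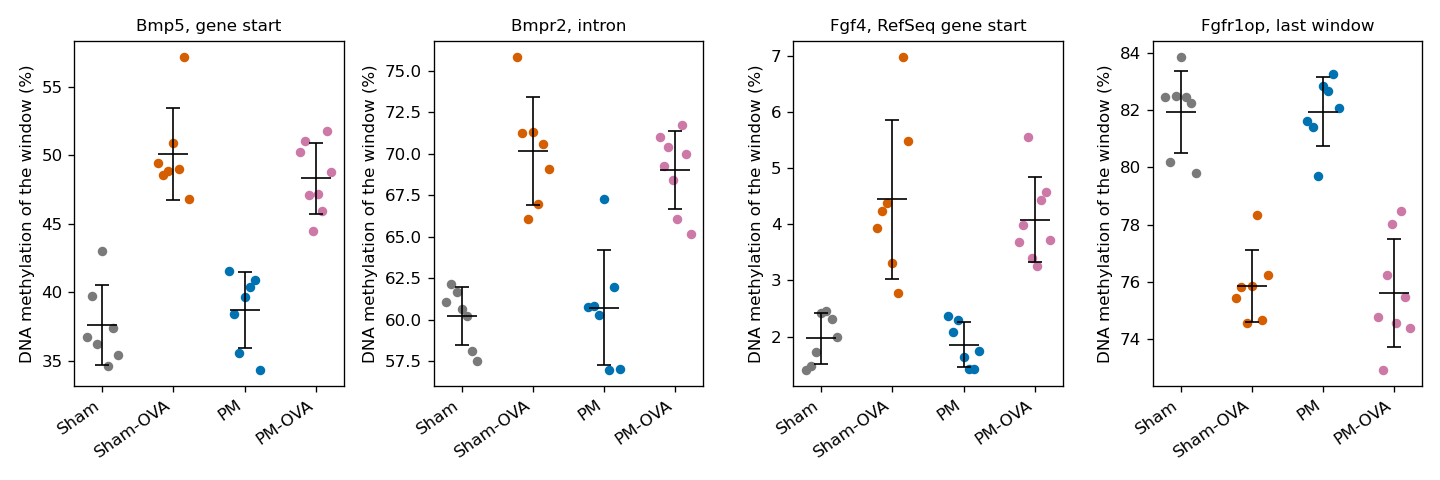
DNA methylation (%) of 4 member windows in each library by group, with 1 point per library and the mean ± SD in black. In Bmp5, Bmpr2 and Fgf4 the OVA groups sit above their controls, except for 1 PM library in Bmpr2 at 67.3%, and in Fgfr1op they sit below. The vertical axes differ and do not start at 0.

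**Figure D5:**
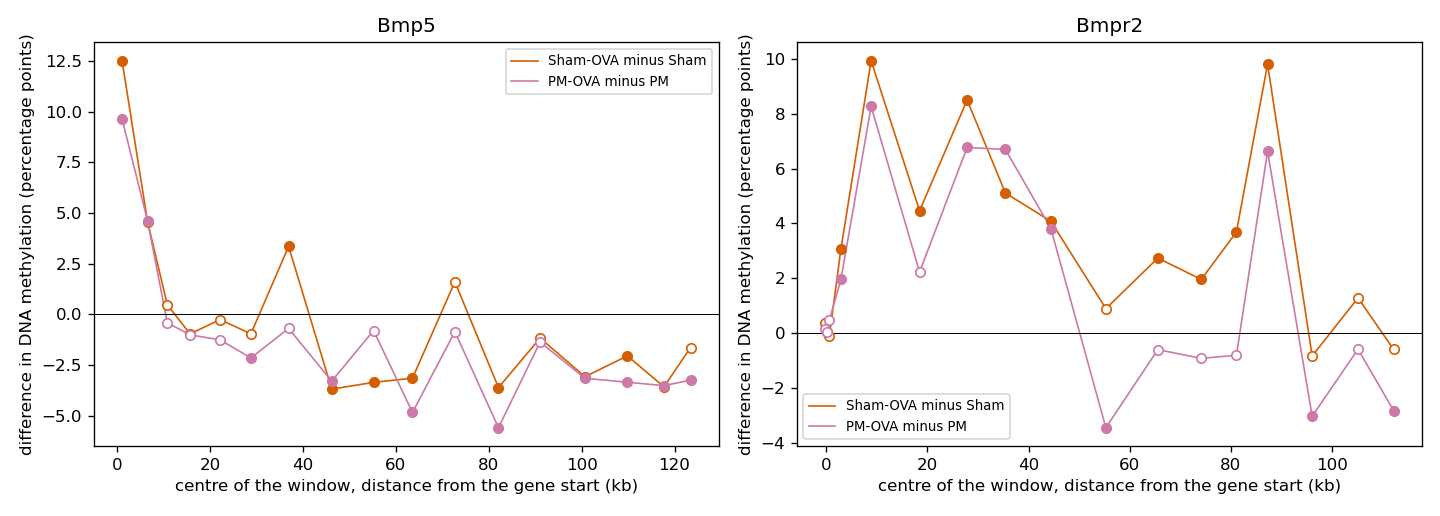
Difference in DNA methylation after OVA (percentage points) for each of the 17 windows of Bmp5 and of Bmpr2, against the distance of the window's centre from the gene start (kb). Filled points have an adjusted p under 0.05. The Bmp5 gain of 12.5 and 9.64 points is at the start, whereas the Bmpr2 gains begin in the fourth window, which holds its RefSeq start, and reach 9.94 and 8.27 points.

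Among the other BMP ligands, Bmp3, a BMP antagonist in several settings, rose around its start. The start window, at chromosome 5 from 98853676 to 98855035, rose from 12.7 to 17.1% in Sham-OVA and from 12.9 to 16.2% in PM-OVA (adjusted p = 0.000206 and 0.00147, limma). The dense exonic window after it rose from 2.37 to 5.56% and from 1.92 to 5.12%, with no overlap between groups in either comparison. The intronic window next to that, at 98855783 to 98859575, ranged from 39.6 to 46.8% (median, 42.0%) in Sham and from 42.7 to 56.2% (median, 50.2%) in Sham-OVA, which overlap. Its mean rose by 8.11 points (log2 ratio, 0.46; SE, 0.10; adjusted p = 0.000726, limma). In PM libraries it ranged from 37.6 to 49.3% and in PM-OVA libraries from 44.7 to 53.9%, a rise of 6.88 points (adjusted p = 0.00178, limma). Over the 9 windows of Bmp3, 3 were higher and 2 lower in Sham-OVA, and 3 higher and 5 lower in PM-OVA, which became 3 and 2 in PM-OVA when libraries were centred.

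Bmp4, which marks distal epithelial tips in the embryonic lung, had 3 of 6 windows higher and 0 lower in Sham-OVA, and 3 higher and 1 lower in PM-OVA. The lower one was its start window, which fell from 39.1 to 36.2% (adjusted p = 0.00638, limma), a call lost with libraries centred (adjusted p = 0.214). The largest difference lay toward its 3′ end, at chromosome 14 from 46384598 to 46386218, where methylation rose by 5.22 points from 14.8% ± 1.41 (SD, n = 7) in Sham-OVA without overlap, and from 16.2 to 19.4% in PM-OVA (adjusted p = 1.78e-05 and 0.00204, limma). The second window of Bmp6 (chromosome 13, 38345541 to 38346004), which holds the RefSeq start of this iron-regulating BMP, rose by 1.82 points from 1.42% in Sham-OVA and by 1.41 points in PM-OVA (adjusted p = 0.000106 and 0.000655, limma). Bmp7, a ligand of kidney and epithelial repair, had 6 windows higher and 10 lower of 27 in Sham-OVA, and 1 higher and 10 lower in PM-OVA (6 and 9 with libraries centred). Its intronic window on chromosome 2 from 172907741 to 172910413 ranged from 74.0 to 82.8% in Sham and from 68.7 to 75.4% in Sham-OVA. Its mean fell by 6.05 points (log2 ratio, -0.46; SE, 0.10; adjusted p = 0.000494, limma), while the difference in PM offspring was -2.68 points with an adjusted p of 0.0801.

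Bmp10 had 1 of 3 windows lower in each comparison and 0 higher. In the exonic window at chromosome 6 from 87434207 to 87438505, Sham libraries ranged from 74.0 to 81.4% and Sham-OVA libraries from 69.8 to 75.5%, and the mean fell by 5.16 points (adjusted p = 0.000678). In PM offspring it fell by 4.43 points (adjusted p = 0.00172, limma). Bmp8a and Bmp8b are neighbouring near-copies on chromosome 4, and reads may be divided uncertainly between them. The window over the 3′ end of Bmp8a (123309188 to 123313602) ranged from 76.1 to 79.8% in Sham and 71.3 to 73.5% in Sham-OVA, and from 77.7 to 80.5% in PM and 70.9 to 74.8% in PM-OVA. It fell by 4.42 points in Sham-OVA and by 5.99 points in PM-OVA (log2 ratio, -0.33 and -0.45; SE, 0.05 for each; adjusted p = 1.3e-05 and 5.58e-08, limma), without overlap in either. Bmp8a had 3 windows higher and 2 lower of 13 in Sham-OVA, and 2 and 1 in PM-OVA. Bmp8b had 4 higher and 1 lower of 10, and 1 and 1. With libraries centred PM-OVA had 6 higher and 1 lower in each of them. Bmp2, a close relative of Bmp4, had 3 higher and 1 lower of 7, and 4 and 1. Bmp6 as a whole had 7 higher and 5 lower of 37, and 6 and 9, the latter 9 and 5 with libraries centred.

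Of the type I BMP receptor genes, Bmpr1b had 5 windows higher and 16 lower of 52 in Sham-OVA, and 4 higher and 24 lower in PM-OVA. Its window at chromosome 3 from 142068990 to 142079323 ranged from 77.7 to 81.6% in Sham and 73.1 to 76.9% in Sham-OVA, and from 78.1 to 80.8% in PM and 71.98 to 77.0% in PM-OVA. It fell by 4.74 and 4.86 points (log2 ratio, -0.38 and -0.39; SE, 0.06 for each; adjusted p = 1.6e-05 and 5.29e-06, limma), and the groups were apart both times. Bmpr1a had 1 higher and 2 lower of 18 in Sham-OVA, and 3 higher and 4 lower in PM-OVA, and with libraries centred 3 and 2, and 5 and 4. No test compared the receptor genes with one another.

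Among FGF receptors, Fgfr3, a receptor of cartilage and of alveolar formation, had 4 windows higher and 0 lower of 5 in Sham-OVA, and 2 higher and 1 lower in PM-OVA. The window at chromosome 5 from 33730286 to 33732016, all of it in annotated exons, ranged from 65.6 to 74.9% (median, 69.0%) in Sham and from 74.1 to 79.8% (median, 77.9%) in Sham-OVA. It rose by 7.28 points (log2 ratio, 0.53; SE, 0.11; adjusted p = 0.00038) and by 4.67 points in PM offspring (log2 ratio, 0.33; SE, 0.10; adjusted p = 0.0107, limma), with overlapping ranges. Fgfr1, the receptor for many mesenchymal FGF signals, had 3 higher and 7 lower of 24 in Sham-OVA, and 2 higher and 13 lower in PM-OVA. Its start window (chromosome 8, 25513322 to 25515239) rose from 39.1% ± 2.42 to 45.4% ± 3.94 in Sham-OVA and from 40.9% ± 2.21 to 44.3% ± 1.36 in PM-OVA (adjusted p = 0.000637 and 0.0378, limma). An intronic window at 25536553 to 25539034 rose by 7.28 points in Sham-OVA with an adjusted p of 0.0285, but ranges were wide (55.4 to 69.1% and 62.4 to 76.0%). It was no longer called without Sham replicate 1, 2 or 3 or Sham-OVA replicate 3 or 6, each taken alone, with adjusted p between 0.06 and 0.0784. A window in the 3′ part of Fgfr1 (25564281 to 25567260) ranged from 89.2 to 92.4% in PM and from 83.6 to 90.1% in PM-OVA, and fell by 3.68 points in Sham-OVA and 5.66 points in PM-OVA (adjusted p = 0.0015 and 6.61e-06, limma). Fgfr4, an endocrine FGF receptor of liver and lung, had 1 higher and 0 lower of 8 in Sham-OVA and no call in PM-OVA.

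Fgf4 gave the clearest example of a low-level gain among the secreted FGFs. This early embryonic growth factor has a CpG-dense stretch at its RefSeq start, of which the sequence above shows the upstream side. In the window at chromosome 7 from 144861202 to 144861649, Sham libraries ranged from 1.40 to 2.45% and Sham-OVA libraries from 2.78 to 6.98%. The mean rose by 2.48 points (log2 ratio, 0.89; SE, 0.13; adjusted p = 9.88e-06). PM libraries ranged from 1.42 to 2.36% and PM-OVA libraries from 3.26 to 5.56%, and the mean rose by 2.23 points (log2 ratio, 0.86; SE, 0.13; adjusted p = 6.24e-06, limma). The groups were apart in both comparisons. The next window, to 144862263, rose from 1.49 to 4.07% and from 1.87 to 4.06% (adjusted p = 4.64e-06 and 5.74e-05, limma). Upstream of these, an intronic window at 144850466 to 144857469 fell from 74.5 to 69.9% and from 74.9 to 69.4% (adjusted p = 5.7e-05 and 3.97e-06, limma). Here Sham libraries ran from 71.4 to 77.0% and Sham-OVA libraries from 68.0 to 71.4%, and PM libraries from 72.9 to 77.4% and PM-OVA libraries from 68.1 to 71.5%, so that the first pair barely overlapped and the second did not.

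The Fgf5 start window, part of whose dense promoter is printed above, rose from 0.599 to 1.86% and from 0.884 to 1.80% (adjusted p = 0.000249 and 0.00384, limma), with overlapping ranges. Fgf5 as a whole, a regulator of the hair cycle, had 1 window higher and 2 lower of 7 in both comparisons. Fgf8, an early patterning factor, rose at chromosome 19 from 45739283 to 45741620, where Sham libraries ranged from 28.5 to 32.8% and Sham-OVA libraries from 29.7 to 38.1%. PM libraries ranged there from 28.2 to 33.3% and PM-OVA libraries from 32.8 to 37.1%, and the rises were 4.88 and 4.97 points (adjusted p = 0.00123 and 0.000506, limma). All 3 windows of Fgf17 were higher in Sham-OVA and 1 was in PM-OVA. Fgf10 had 3 higher and 4 lower of 16 in Sham-OVA, and 0 higher and 7 lower in PM-OVA, which became 3 higher and 2 lower with libraries centred. Its RefSeq start differed by 1.09 points in Sham-OVA (adjusted p = 0.00573) and by 0.626 points in PM-OVA (adjusted p = 0.0507, limma, and 0.0218 with libraries centred). For Fgf9 and Fgf20 no window of 15 and 8 was called in Sham-OVA, and 4 and 0 were in PM-OVA. With libraries centred each had 2 in Sham-OVA, and 3 and 2 in PM-OVA, all higher. Fgf2, the broadly made basic FGF, had 1 window under its own name, which rose from 87.2 to 88.7% in Sham-OVA (adjusted p = 0.0309, limma). In PM-OVA it differed by 1.18 points with an adjusted p of 0.0758, and with libraries centred by 2.16 points with an adjusted p of 0.0011 (limma).

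Of the remaining secreted FGFs in Sham-OVA, Fgf3 had 2 of 5 windows higher, Fgf6 had 1 of 6, Fgf18 had 1 of 10 and Fgf22 had 1 of 3, with 0 lower in each. In PM-OVA, Fgf3 had 3 higher and 0 lower, Fgf6 had 0 higher and 2 lower, Fgf18 had 0 higher and 4 lower, and Fgf22 had 1 higher and 0 lower. With libraries centred the PM-OVA counts became 1 and 0 for Fgf6 and 1 and 1 for Fgf18. Among the endocrine hormones, the single window of Fgf21, a fasting hormone of the liver, rose by 3.56 points in Sham-OVA and by 2.60 points in PM-OVA (adjusted p = 0.00171 and 0.0102, limma). Fgf23, the phosphate hormone of bone, had 1 of 3 windows higher in Sham-OVA and no call in PM-OVA. The window of Fgf15, the intestinal bile acid hormone, was not called in either.

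The intracellular homologues Fgf12 and Fgf14 bind voltage-gated sodium channels in excitable cells and are not secreted. They are very long genes with 89 and 57 windows. Fgf14 had 2 windows higher and 21 lower in Sham-OVA, and 2 higher and 28 lower in PM-OVA, and Fgf12 had 8 higher and 18 lower, and 6 higher and 31 lower. With libraries centred the PM-OVA counts became 4 and 9 for Fgf14 and 13 and 14 for Fgf12, and those in Sham-OVA 4 and 16, and 11 and 14. In Fgf12, an intronic window at chromosome 16 from 28652967 to 28664094 ranged from 68.4 to 74.2% in Sham and from 62.6 to 68.3% in Sham-OVA and fell by 5.37 points (adjusted p = 0.000271, limma). In PM offspring it fell by 3.43 points with an adjusted p of 0.00708, which became 0.117 when libraries were centred. Another at 28488074 to 28492528 ranged from 45.4 to 53.0% in Sham and from 52.4 to 59.2% in Sham-OVA, and from 46.9 to 51.5% in PM and 52.8 to 57.8% in PM-OVA. It rose by 6.43 and 5.70 points (adjusted p = 5.99e-05 and 0.000125, limma). The Fgf12 start window rose by 2.76 points from 9.19% ± 0.681 (SD, n = 7) in Sham-OVA without overlap and from 10.4% ± 0.560 to 11.4% ± 0.469 in PM-OVA (adjusted p = 1.05e-06 and 0.0266, limma). Fgf11 had 1 window higher and 1 lower of 3 in Sham-OVA, and 0 and 1 in PM-OVA (1 and 0 with libraries centred).

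Among the genes that only share the name, Fgfr1op encodes a centrosomal protein first found fused to Fgfr1. Its last window, at chromosome 17 from 8193110 to 8198054, ranged from 79.8 to 83.9% (median, 82.4%) in Sham and from 74.6 to 78.3% (median, 75.8%) in Sham-OVA. PM libraries ranged from 79.7 to 83.3% (median, 82.1%) and PM-OVA libraries from 72.9 to 78.5% (median, 75.1%). It fell by 6.07 points (log2 ratio, -0.51; SE, 0.07; adjusted p = 1.24e-06) and by 6.32 points (log2 ratio, -0.53; SE, 0.06; adjusted p = 3.17e-07, limma), with both OVA groups wholly below their controls. Bmp1 had 2 windows higher and 5 lower of 14 in Sham-OVA, and 1 and 8 in PM-OVA. Fgfr1op had 0 higher and 4 lower of 8 in both, and Fgfr1op2 had 0 and 1 of 4, and no call in PM-OVA (1 and 0, and 2 and 0, with libraries centred). Leaving out these 3 genes, 85 windows were higher and 102 lower in Sham-OVA, and 59 and 163 in PM-OVA.

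The Sham and PM offspring were compared by the same windows in separate libraries. Of the members, 142 were called in both with the same sign, 50 higher and 92 lower, and 0 were called with opposite signs. This was 71.4% of the Sham calls and 60.4% of the PM calls. As a share of members it was 27.4%, beside 27.3% of all windows. The differences in both kinds of offspring had the same sign in 82.3% of members and 81.8% of all windows. Across members their Pearson's r was 0.879, as it was across all windows, a description of windows that share libraries and not a test.

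Averaging the windows that carry a gene's name asked whether it moved as a whole, as far as these windows cover it. They were 1 of 15 overlapping windows for Fgf2, 1 of 3 for Fgf15, 5 of 9 for Fgfr3 and 4 of 6 for Fgfr1op2. Bmp4, Fgf11, Fgf14 and Fgf17 lacked 1 window each. Fgf2 and Fgfr3 are among the genes called higher in Sham-OVA. Of 36 genes, 8 were higher and 5 lower in Sham-OVA at an adjusted p under 0.05 over 38141 genes (11.9% higher and 27.5% lower over all genes), and 4 were higher and 13 lower in PM-OVA (6.89% and 47.1% over all genes). After centring, 19 were higher and 4 lower in Sham-OVA (22.3% and 21.6% over all genes), and 20 higher and 4 lower in PM-OVA (25% and 24.1% over all genes), and 8 of the genes called in PM offspring by either route changed sign. Those called higher both ways in both comparisons were Bmpr2, Bmp4, Fgf17 and Fgf21, and those called lower both ways in both were Bmp10, Bmpr1b, Fgf14 and Fgfr1op. Bmpr2 rose from 54.4% ± 1.02 to 57.6% ± 0.887 in Sham-OVA and from 55.4% ± 0.908 to 56.8% ± 0.914 in PM-OVA (adjusted p = 1.99e-05 and 0.0142, limma). Fgf17 rose by 3.13 and 2.17 points, Fgf21 by 3.56 and 2.60 points and Bmp4 by 1.03 and 0.721 points. Bmp10 fell by 2.30 points in both, Fgfr1op by 1.90 and 2.21 points, Fgf14 by 1.39 and 1.86 points and Bmpr1b by 0.966 and 1.70 points.

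Maternal PM2.5 gave no called member window. Comparing PM with Sham, 0 of 519 windows passed an adjusted p of 0.05 by limma, and 29 had an unadjusted p under 0.05, beside 5.79% of all windows. Comparing PM-OVA with Sham-OVA, 0 passed and 35 had an unadjusted p under 0.05 (5.96% of all windows). The interaction, which tests whether the OVA difference depended on the dam, gave 0 and 37 (7.4% of all windows). No gene mean passed in any of these 3 comparisons. In unchallenged lungs the smallest p belonged to an intronic Fgf12 window at chromosome 16 from 28329910 to 28339472, at 81.6 to 83.5% in Sham and 77.6 to 82.0% in PM, a difference of -2.29 points (unadjusted p = 0.000498 and adjusted p = 0.716, limma).

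In challenged lungs, and for the interaction, the smallest p belonged to the same Bmpr2 window, at 59812947 to 59824426. Sham libraries ranged from 72.3 to 78.3% (median, 77.3%), Sham-OVA from 76.1 to 80.0% (median, 77.4%), PM from 75.4 to 79.4% (median, 77.7%) and PM-OVA from 72.3 to 76.4% (median, 74.0%). Only the PM-OVA group had a lower centre. PM-OVA was 3.39 points below Sham-OVA (adjusted p = 0.725), and the difference after OVA was 0.892 points where dams had saline (adjusted p = 0.409) and -3.45 points where they had PM2.5 (adjusted p = 0.000814), an interaction of -4.34 points (adjusted p = 0.551, limma). The 519 differences ran from -3.15 to 3.78 points for PM against Sham and from -3.39 to 2.54 points for PM-OVA against Sham-OVA.

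Other genes of both pathways were followed through lists of antagonists, co-receptors, adaptors and targets. The FGF list had windows for 23 of its 24 genes, 289 in all, of which 64 were higher and 52 lower in Sham-OVA, and 49 higher and 78 lower in PM-OVA. These are 22.1% and 18% in Sham-OVA, beside 13.3% and 22.3% of all windows, and 17% and 27% in PM-OVA, beside 9.26% and 34.8%. With libraries centred they were 77 and 49, and 89 and 48, so that the balance in PM-OVA turned. Its median difference was 0.153 and -0.0417 points. It held 4 DMRs in Sham-OVA and 2 in PM-OVA (0.775% and 0.584% of all windows were DMRs), or 3 and 1 at an adjusted p under 1e-06, and the genes that held them are named after their values were seen. Gab1, a docking protein of receptor tyrosine kinases, rose from 43.8 to 58.2% at chromosome 8 from 80868239 to 80871680 (adjusted p = 5.78e-09, limma) in Sham-OVA and from 45.9 to 55.6% in PM-OVA (adjusted p = 7.21e-07, limma). Of its 32 windows, 15 were higher and 5 lower in Sham-OVA, and 8 higher and 11 lower in PM-OVA. Etv5, an FGF-induced transcription factor, rose by 11.8 points and the inhibitor Spred3 by 11.7 points in single windows (adjusted p = 6.97e-07 and 2.77e-05, limma) in Sham-OVA. The same windows rose by 9.23 and 5.97 points in PM-OVA (adjusted p = 8.85e-06 and 0.0103, limma). The adaptor Grb2 fell from 69.2 to 57.5% in Sham-OVA and from 68.2 to 57.2% in PM-OVA at chromosome 11 from 115674109 to 115677939 (adjusted p = 1.66e-08 and 1.48e-08, limma), and both PM-OVA DMRs of the list were in Grb2. Of its 17 windows, 12 were lower and 0 higher in each comparison.

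The BMP list had windows for 34 of its 35 genes, 359 in all. In Sham-OVA 120 were higher (33.4%) and 51 lower (14.2%) with 21 DMRs, and in PM-OVA 96 were higher (26.7%) and 83 lower (23.1%) with 12 DMRs, all of these DMRs higher after OVA. At an adjusted p under 1e-06 the DMRs were 12 and 6. Over all windows 13.3% were higher and 22.3% lower in Sham-OVA, and 9.26% and 34.8% in PM-OVA, with 0.775% and 0.584% DMRs. With libraries centred 138 windows of the list were higher and 40 lower in Sham-OVA, and 143 and 50 in PM-OVA. Of all windows, 18.3% were then higher and 17.8% lower in Sham-OVA, and 18.9% and 18.7% in PM-OVA. The median difference of the list was 0.385 and 0.0788 points, against -0.414 and -1.03 points over all windows. The inhibitory Smads, which switch the pathway off, held most of the DMRs. Smad6 had 23 of 26 windows higher and 0 lower in both comparisons, with 8 and 6 DMRs. Smad7 had 10 of 15 higher and 0 lower in both, with 5 and 6 DMRs. The co-receptor Eng and the type I receptor Acvrl1, both of endothelium and both partners of Bmpr2 in hereditary vascular disease, had 10 of 12 and 7 of 7 windows higher and 0 lower in both comparisons, with 3 and 2 DMRs in Sham-OVA and 0 in PM-OVA. Acvr1, Bmper and Rgmb had 1 DMR each in Sham-OVA and 0 in PM-OVA. In PM-OVA, under the 10-point limit, the largest called rises of Eng, Acvrl1, Acvr1 and Rgmb were 9.82, 9.64, 7.65 and 7.60 points. Their adjusted p ran from 6.29e-06 to 0.000413 (limma). The Bmper window that was a DMR in Sham-OVA had 57.8% in PM and 61.1% in PM-OVA. Of the 359 windows of the list, 0 were called for the interaction. The genes named here were singled out after their values were seen.

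Windows of cell type markers were counted beside these results, where 13.3% of all windows were higher and 22.3% lower in Sham-OVA, and 9.26% and 34.8% in PM-OVA. The 117 windows of 21 leucocyte marker genes had 17 higher (14.5%) and 39 lower (33.3%) in Sham-OVA, and 11 (9.4%) and 52 (44.4%) in PM-OVA, or 23 and 36, and 23 and 38, with libraries centred. Their mean level per library was 66.3 to 67.7% in Sham and 65.5% ± 0.467 (SD, n = 7) in Sham-OVA, at most 65.99%. In PM it was 66.8 to 67.9% and in PM-OVA 64.6 to 65.9%. Endothelial marker windows, 174 in 9 genes, had 49 higher (28.2%) and 34 lower (19.5%) in Sham-OVA, and 46 (26.4%) and 60 (34.5%) in PM-OVA, the latter 57 and 40 with libraries centred, with mean levels of 67.8 to 69.6% in Sham, 68.2 to 70.4% in Sham-OVA, 67.8 to 70.3% in PM and 68.1 to 69.8% in PM-OVA. The 58 epithelial windows had 18 higher (31%) and 4 lower (6.9%), and 10 (17.2%) and 8 (13.8%), which became 27 and 4, and 18 and 2, with libraries centred. The 97 mesenchymal windows had 21 higher (21.6%) and 24 lower (24.7%), and 12 (12.4%) and 31 (32%), the PM-OVA shares being near those of all windows. With libraries centred the mesenchymal counts turned to 25 and 20, and 24 and 20. The part of cell mixture in the member differences was not tested.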

How the data were processed

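DNA of 29 lungs was examined by enzymatic methyl sequencing. Per the labels and methods, the authors trimmed reads with Trim Galore, aligned them with DRAGEN to GRCm38, and used SeqMonk to set windows of equal CpG content over annotated genes. The deposited value is the percent methylation of a window in a library. Read counts and the coverage of each window are not in the table, so the authors' count-based test with library size as covariate could not be run.

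Each percent p was put on a log2 scale, as p plus 1 over the unmethylated percent plus 1. Windows with at least 3 values in every group (259167 of 260686; 1519 were not tested) were fitted with 4 group means and the empirical Bayes moderation of limma 3.58.1 in R 4.3.3, 2-sided, with Benjamini-Hochberg adjustment over all of them. A window was called at an adjusted p under 0.05, and a DMR also needed a difference of group means of 10 percentage points. The code was tested on simulated data. Gene means were the averages of the windows that carry a gene's name. Windows were placed by GENCODE M21, and promoters came from RefSeq.

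Named windows were the DMRs among members, the 5 largest rises and falls per OVA comparison (1 window per gene and direction), and the smallest p for each other comparison, 18 in all. Start windows were described by their level, and further windows of these and other genes were named after their values were seen. The members and lists were chosen with earlier results of these data known. Alternatives were an offset of 5, untransformed percent, complete windows only, centring of each library, a minimum difference of 5 points, a threshold of 1e-06, a replicate block, only the groups compared, the median in place of the gene mean, and leaving out each library.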

Additional observations from a re-analysis of the deposited data

Results flagged for a closer look

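In each group of the 18 named windows, the library at either end was set against its neighbour. In 5 of 72 groups (6.94%) the gap took up a larger share of the group's range than Dixon's 95% limit, where chance alone gives about 1 in 20. At the Bmp5 start, Sham-OVA replicate 6 was at 57.2% and the next library at 50.9% (gap share, 0.61). In the Fgf12 window from 28652967, PM replicate 5 was at 75.2% against 71.4% (0.611). In the Fgfr1 window from 25564281, PM-OVA replicate 6 was at 90.1% against 86.1% (0.613). In the intronic Bmp5 window from 75853202, PM replicate 3 was at 85.2% against 83.1% (0.597). In the Bmpr2 window from 59812947, Sham replicate 7 was at 72.3% against 76.6% (0.706). Over the leave-one-out fits the Bmp5 start kept differences of 11.3 to 13.4 points in Sham and 8.92 to 10.2 points in PM offspring.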

How the results depend on the processing

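Of 38 recomputed counts of called windows, genes and DMRs whose reported value was above 0, 33 stayed within 1.5 times of it. Of 75 whose reported value was 0, 73 stayed at 0, most of them for maternal PM2.5 and the interaction. Some of these could not have moved, since with 0 called windows a stricter p or a smaller minimum difference again gives 0. DMRs among members became 3 in Sham and 1 in PM offspring when libraries were centred, and 24 and 17 with a minimum difference of 5 points. Called windows became 1 and 5 at an adjusted p of 1e-06. Called genes in Sham offspring became 23 when centred. Leaving out each library in turn gave 174 to 203 called windows in Sham and 216 to 243 in PM offspring, 1 to 3 and 0 to 1 DMRs, 12 to 14 and 16 to 19 genes, 102 to 117 and 119 to 129 windows of the FGF list and 154 to 172 and 168 to 181 of the BMP list, and 0 throughout for the other comparisons. Of the differences of the 18 named windows, 153 of 156 kept their side of the threshold, none reversed, and the exceptions were the Fgfr1 intronic window (PM offspring, adjusted p = 0.0382) and the 2 lower Fgf12 windows (PM offspring, 0.117 and 0.526), all with centring. Leaving out a library changed 13 of 1131, none of them reversed, most often the Fgf12 window from 28329910 in PM offspring (adjusted p up to 0.0945).

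With the replicate number as a block, 203 windows were called in Sham and 222 in PM offspring, and no count moved by over 1.5 times. Same-numbered libraries of different groups had correlations from -0.0409 to 0.104 (median, 0.0141, over 42 pairs). These numbers are those of the sample titles. Some library names in Sham-OVA and PM-OVA carry other numbers, and pairing by library name was not tested. The coverage of each window is not in the table, so the error of a single percentage could not be given. Library size could not be a covariate, and litters cannot be told apart from libraries.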
